A study of Mus musculus with 4 samples.

Results

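The motile cilia genes examined here were 40 genes of the beating cilium and of the transcription factors that switch it on, out of 27248 named genes on a mouse lung expression array. They were chosen by gene name and grouped by role: 4 transcription factors, 5 genes of the outer dynein arm, 8 of the inner dynein arm, 2 for dynein assembly and a dynein light chain, 3 of the molecular ruler and nexin-dynein complex, 4 of the radial spoke, 5 of the central pair, 5 tektins and other doublet proteins, and 4 other ciliary genes. No measured value entered the choice, although it was made with earlier results of these data known.

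The series holds 4 single-colour arrays of lung RNA from C57BL/6J mice, with 1 array for each group, 3 weeks after the mice inhaled an agent. The groups were sham mice given PBS (sham/PBS), sham mice given PPE (sham/PPE), ORX mice given PBS (ORX/PBS) and ORX mice given PPE (ORX/PPE). From the title of the series, which speaks of testosterone deficiency and of elastase, ORX was read as orchiectomy, the removal of the testes, and PPE as porcine pancreatic elastase, an enzyme that degrades elastic fibres and is used to model emphysema. PBS is the saline vehicle, and all mice had either surgery or its sham. Each array carried RNA pooled from 5 mice, so the spread between mice was averaged away before hybridisation. With 1 array a group there is no replicate error, no test was possible, and every difference below is between single pools; the age of the mice is not given in the sources used here.

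Motile cilia are hair-like projections that line the conducting airways in large numbers on multiciliated cells and sweep mucus out of the lung. Their core, the axoneme, is a ring of microtubule doublets around a central pair. Outer and inner dynein arms are the motors that slide the doublets, while radial spokes, the central pair and the nexin-dynein complex coordinate the stroke. FOXJ1 and the RFX factors activate the genes of this machine, and MCIDAS acts upstream of them in the choice to become a multiciliated cell. Loss of many of these genes in people causes primary ciliary dyskinesia.

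The level of a gene is given as its scaled signal, the background-subtracted intensity of its brightest probe after the 4 arrays were brought to the same 75th percentile. Levels are compared between arrays for 1 probe, not between probes. A difference is the log2 ratio between arrays, and a probe counts as measured where the scanner software marked it well above background. The 75th percentile of the intensities lay between 591.7 and 715.1, and 20154 to 20944 genes were above background on an array. All 40 motile cilia genes had a probe, 75 probes in all, and 19 of them had 1 probe. Of the 40, 38 were above background on every array. Dnaaf1 was above background on 3 arrays, and Dnah3 on none. The tissue label was checked against marker genes. All 10 markers of ciliated cells were above background on all 4 arrays, as were all 13 markers of alveolar type 2 cells. Of the 10, Sntn, Tmem212 and Cdhr3 are not among the motile cilia genes examined, and the others, such as Foxj1, are. The sham/PPE array stood apart in other lists. Genes of spermatids, which also build an axoneme, were above background for 21 of 27 on sham/PPE and for 12 to 14 on the others, and the protamine gene Prm1 had a scaled signal of 1242 there, against 20.97 on sham/PBS, 14.18 on ORX/PBS and 9.613 on ORX/PPE.

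The size of the scatter between spots of 1 array was measured with 300 probes that were each printed 10 times. The SD that this scatter gives to a log2 difference between 2 arrays was 0.0437 to 0.0504 for signals over 500, 0.106 to 0.128 for signals of 50 to 500, and 0.496 to 0.619 for signals under 50. Most of these probes are bright: 285 or 286 an array lay over 500, 11 or 12 at 50 to 500 and only 2 or 3 under 50, so the value for dim signals is rough. It holds for single spots and covers neither mice, RNA preparation nor labelling.

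In sham mice the motile cilia genes were lower with PPE than with PBS, throughout the list. All 38 genes measured on both arrays were below 0, with a median difference of -0.47 (middle 50% of genes from -0.61 to -0.39, range -0.96 to -0.07). Over all genes measured on both arrays, the median was 0.04 and 43.0% were below 0. The sham/PPE level had a median of 72.2% of the sham/PBS level over the motile cilia genes, and of 103% over all genes. The scaled signal is relative to all RNA of the whole lung. A gene of a single cell type can thus be lower with fewer such cells, less of its RNA in each, or more RNA from other cells. These cannot be told apart here. The differences were wide in number but small in size. Only Dnaaf1 of the 40 was at least 2-fold lower, as a bound set by a dim signal, against 0.388% of all genes. None was at least 2-fold higher, against 1.34%. At a threshold of 1.5-fold, 11 were lower, against 3.73% of all genes, and none was higher, against 5.54%.

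In ORX mice the same comparison left the motile cilia genes near 0. Over 39 measured genes the median difference between PPE and PBS was -0.05, with 28 below 0 and 11 above, beside a median of -0.01 and 52.7% below 0 over all genes. None was 2-fold higher or lower, against 0.681% and 0.403% of all genes. Dnah7a was the 1 gene at least 1.5-fold lower, against 2.62% of all genes, and none was 1.5-fold higher, against 3.35%. Centring the arrays on 12 reference genes, which shifts all genes alike, moved this median to 0.04 and that of all genes from -0.01 to 0.08. The motile cilia genes lay 0.04 below all genes on either scale, so the sign of values this near 0, those of the roles in ORX mice included, depends on the scale.

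Orchiectomy alone went with lower levels. Under PBS, 38 of 39 measured genes were lower in ORX than in sham mice, with a median of -0.25, beside 0.01 and 48.6% below 0 over all genes. None was 2-fold apart, against 0.649% of all genes higher and 1.18% lower, and Dnah1 was the 1 gene at least 1.5-fold lower, against 5.32%, with none 1.5-fold higher, against 4.18%. Under PPE the order turned: 33 of 38 genes were higher in ORX than in sham mice, with a median of 0.18, beside -0.03 and 44.1% above 0 over all genes. Dnaaf1 alone was at least 2-fold higher, as a bound set by a dim signal, against 0.293% of all genes. None was 2-fold lower, against 1.45%. Dnaaf1 and Dnah12 were at least 1.5-fold higher, against 2.27%, and none was 1.5-fold lower, against 4.97%. These 4 comparisons are made from 4 arrays, each array serves in 2 of them, and their values are therefore not separate lines of evidence. PPE in ORX mice and ORX under PBS are the comparisons that do not use the sham/PPE array.

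**Figure D1:**
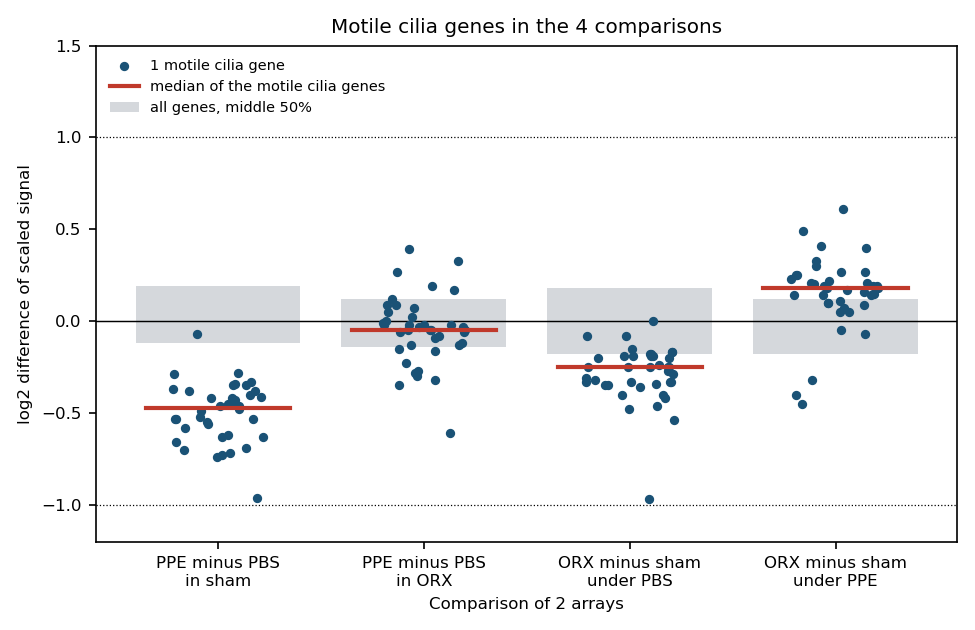
Log2 differences of the motile cilia genes in the 4 comparisons, with 1 dot for each gene above background on both arrays, a red line at their median, a grey bar for the middle 50% of all genes and dotted lines at 2-fold. All 38 dots for PPE against PBS in sham mice lie below 0, around a median of -0.47, while the dots in ORX mice lie around -0.05.

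The 4 arrays were also ranked for each of the 38 genes above background on all of them. Sham/PBS held the highest level for 35 genes (92.1%), against 27.4% of all genes, and sham/PPE the lowest for 33 (86.8%), against 17.6%. Both held together for 30 genes (78.9%), against 7.16% of the 19336 genes ranked. The full order of sham/PBS, then ORX/PBS, ORX/PPE and sham/PPE was found for 22 genes, against 3.5% of all genes. The other 8 of the 30 had ORX/PPE above ORX/PBS. Mcidas, Dnaic1, Dnah1, Dnah7a and Tppp3 were lowest on ORX/PPE. Dnah12 and Spag17 were highest on ORX/PPE, and Rfx3 on ORX/PBS. Relative to sham/PBS, the median level of the 38 genes was 84.0% on ORX/PBS and 79.8% on ORX/PPE, where all genes had 101% and 100%.

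**Figure D2:**
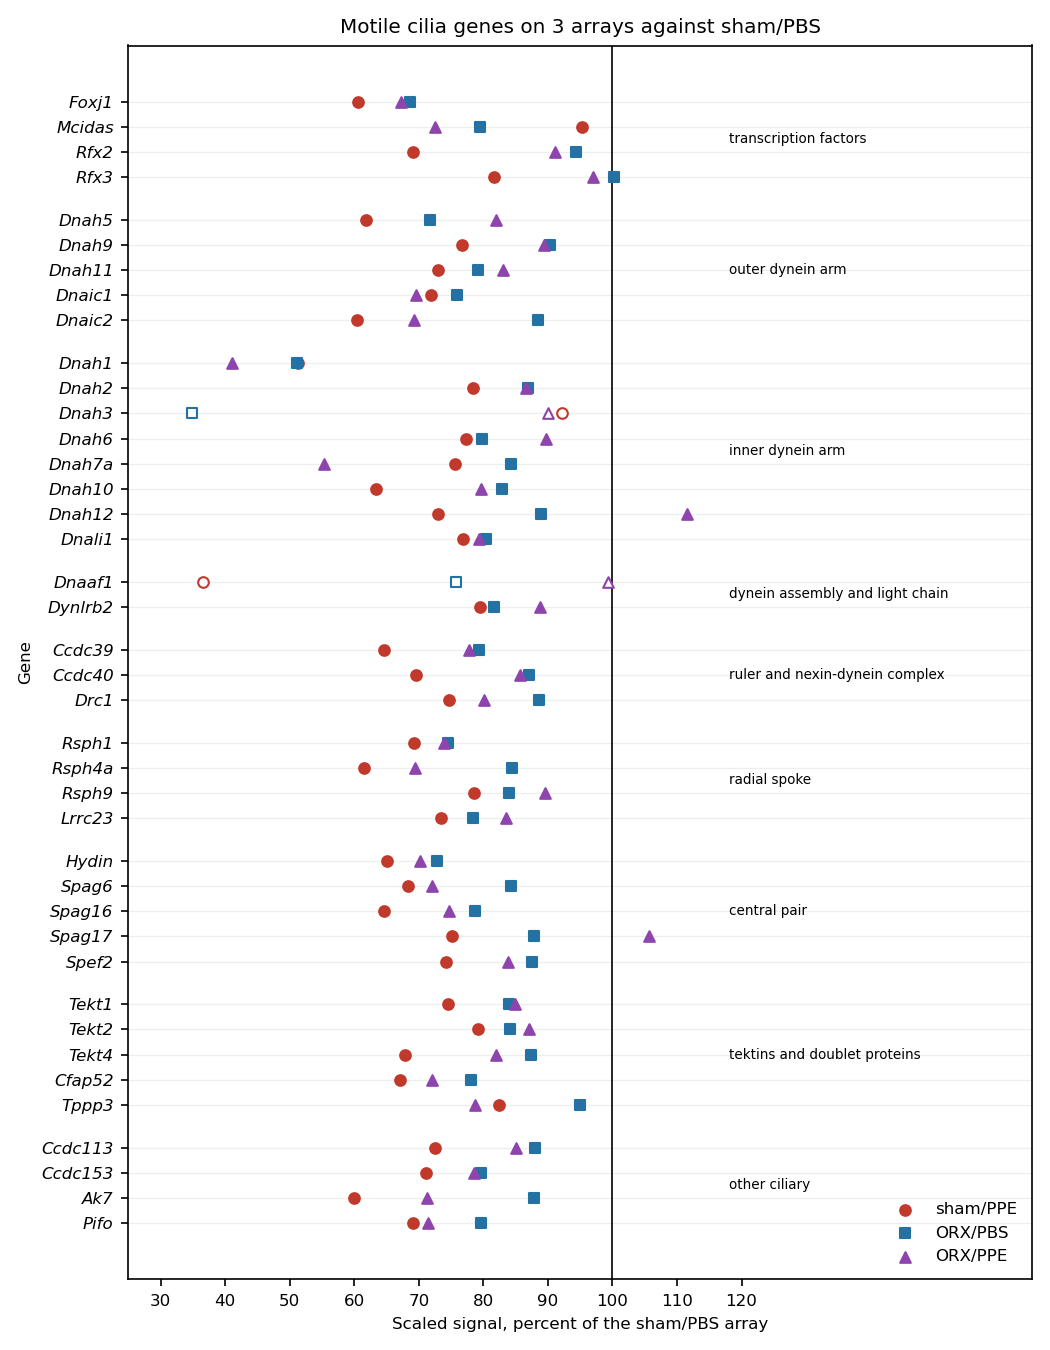
Level of each motile cilia gene on sham/PPE, ORX/PBS and ORX/PPE in percent of its sham/PBS level, with genes grouped by role and open symbols for Dnah3 and Dnaaf1, which were not above background on all 4 arrays. Among the other 38 genes the sham/PPE level ran from 51.2% to 95.3% and was the lowest of the 4 arrays for 33.

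The promoters of the genes were read for the letters of the RFX binding site, the X-box, since RFX2 and RFX3 are on the list. Promoters of 300 bases, 250 before the annotated start and 50 from it on, came from RefSeq on GRCm38.p6, and 34 genes matched with 38 promoters; Foxj1, Dnaaf1, Tppp3, Rsph1, Rsph4a and Dnah3 had no entry. Every share of all promoters or all genes given here leaves out the promoters of a single chromosome. The core GTTGCC, searched on both strands, was in 20 of the 38 promoters (52.6%), against 12.5% of the 32851 promoters counted. By gene, 19 of 34 (55.9%) had it in a promoter, against 14.1% of all genes. The core began between 60 bases before and 30 after the start in 12 of the 38 promoters (31.6%), against 4.63% of all promoters, a window chosen after the positions were seen. The full X-box palindrome was searched in a single form of 14 letters, with a fixed spacing between its arms. This form, which can overlap the core, was in 1 promoter, that of Pifo (2.63%, against 0.451%). Palindromes with another spacing were not searched, so other promoters may hold them. The forkhead letters GTAAACA were in 1 promoter, that of Ak7 (2.63%, against 3.65%). Median GC content was 54.7% in the promoters of the list and 52.7% in all. These are matches of letters, and neither binding nor use of the sites was measured.

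The 8 windows below, each of 100 bases from 70 before the start on, show where the core lies in genes of several roles, chosen after the matches were seen. Each is written 5′ to 3′ on the strand of its gene, and capitals mark the core on either strand (GTTGCC or GGCAAC) and, in Pifo, the palindrome with it.
Dnah10 promoter, chr5:124725015-124725114, plus strand: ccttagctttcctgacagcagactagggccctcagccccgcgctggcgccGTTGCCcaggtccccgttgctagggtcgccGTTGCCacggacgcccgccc
Dnaic2 promoter, chr11:114727349-114727448, plus strand: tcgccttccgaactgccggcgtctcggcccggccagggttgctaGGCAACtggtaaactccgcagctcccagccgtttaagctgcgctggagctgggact
Drc1 promoter, chr5:30281323-30281422, plus strand: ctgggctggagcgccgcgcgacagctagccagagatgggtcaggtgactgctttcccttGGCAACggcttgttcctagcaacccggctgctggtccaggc
Dynlrb2 promoter, chr8:116504945-116505044, plus strand: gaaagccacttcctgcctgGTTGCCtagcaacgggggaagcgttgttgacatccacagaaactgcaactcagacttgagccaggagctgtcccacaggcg
Hydin promoter, chr8:110266907-110267006, plus strand: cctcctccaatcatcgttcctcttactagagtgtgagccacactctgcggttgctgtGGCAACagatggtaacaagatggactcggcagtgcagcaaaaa
Lrrc23 promoter, chr6:124779698-124779797, minus strand: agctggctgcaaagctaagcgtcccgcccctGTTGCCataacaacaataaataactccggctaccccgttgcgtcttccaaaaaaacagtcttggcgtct
Pifo promoter, chr3:106001468-106001567, minus strand: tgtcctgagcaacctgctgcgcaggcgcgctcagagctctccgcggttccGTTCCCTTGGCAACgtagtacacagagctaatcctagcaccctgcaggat
Tekt1 promoter, chr11:72361853-72361952, minus strand: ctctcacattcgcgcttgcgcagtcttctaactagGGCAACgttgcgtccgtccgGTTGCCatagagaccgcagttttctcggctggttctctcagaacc
Dnah10 and Tekt1 carried the core at 2 places in the window, and the palindrome of Pifo ends in a core on the other strand. All of these genes were lower on sham/PPE than on sham/PBS, as was every measured gene of the list with or without the letters.

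**Figure D3:**
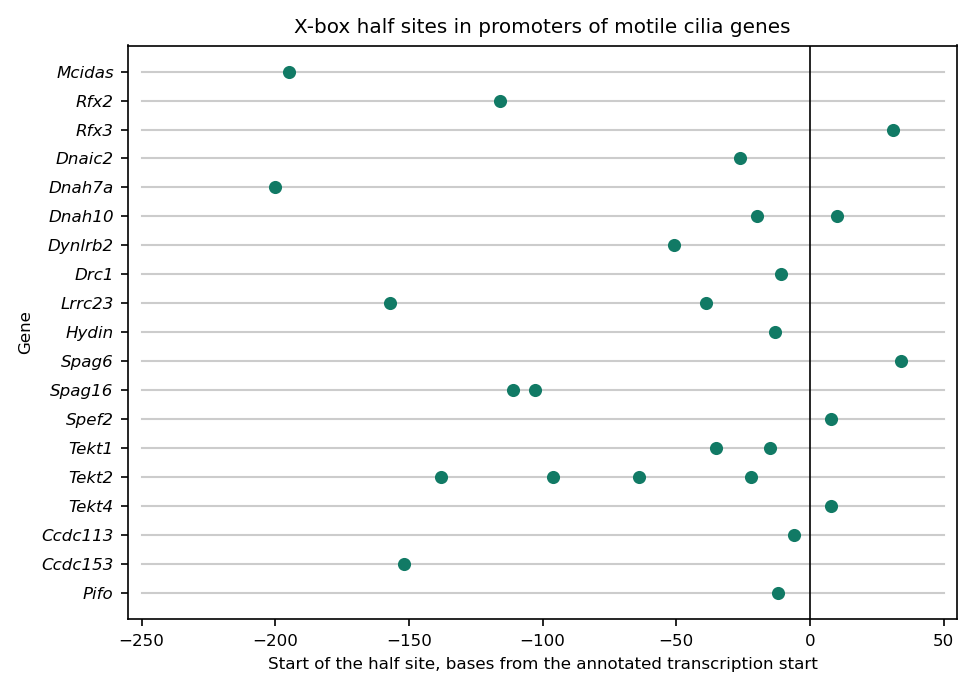
Positions of the X-box core GTTGCC (either strand) in the promoters of the motile cilia genes, as distance in bases from the annotated start. The matches gather near the start, with 12 of 38 promoters holding one that begins between 60 bases before it and 30 after it; the points of Tekt2 repeat because overlapping promoters are listed for it.

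Among the transcription factors, Foxj1, the master regulator of motile cilia, was read by a probe at chr11:116192214-116192273 on mm9, the build of the array's probe coordinates, and had scaled signals of 7330 in the sham/PBS pool, 4444 in sham/PPE, 5026 in ORX/PBS and 4927 in ORX/PPE. It stood highest on sham/PBS, and the other 3 arrays lay close together. The difference was -0.72 for PPE in sham mice, -0.03 in ORX mice, -0.54 for ORX under PBS and 0.15 for ORX under PPE. Foxj1 was 1 of the 11 genes at least 1.5-fold lower with PPE in sham mice. Rfx2, which binds the X-box, had signals of 180.8, 124.8, 170.5 and 164.8 in the same order of arrays. Only sham/PPE was low, with a PPE difference of -0.53 in sham and -0.05 in ORX mice, and the second probe of Rfx2 gave -0.20 and -0.06. With another background correction, normexp, the sham value for Rfx2 was -0.25. Rfx3, a close relative of Rfx2, had 913.6, 746.5, 915.9 and 885.5, again with sham/PPE low and the others level. Its PPE differences were -0.29 and -0.05; of its 2 other probes, 1 gave -0.58 in sham mice and the other 0.48, so its probes disagree in direction.

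Mcidas went its own way among the factors. The brightest Mcidas probe, at chr13:113790543-113790602 on mm9, had 19050 in the sham/PBS pool, 18160 in sham/PPE, 15150 in ORX/PBS and 13810 in ORX/PPE. Both ORX arrays were below both sham arrays, with an ORX difference of -0.33 under PBS and -0.40 under PPE and a PPE difference of -0.07 in sham mice. The probe begins with a repeat of 20 bases of alternating A and C, shown in capitals in its first 30 bases, since repeats of this kind occur at many places in a genome.
Mcidas brightest probe, first 30 bases: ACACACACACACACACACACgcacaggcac
A repeat of 16 such bases or more was in 113 of the 56605 probes. The second Mcidas probe, without it, had 29.66, 24.49, 25.03 and 24.11, with a PPE difference of -0.28 in sham mice and an ORX difference of -0.25 under PBS and -0.02 under PPE. The spot scatter under a signal of 50, known from 2 or 3 probes, was larger than these differences. Whether the repeat probe also binds other RNA was not tested.

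The outer dynein arm sets the beat frequency. Its 5 genes were all lower with PPE in sham mice, with a median of -0.48, against -0.02 in ORX mice, and their median ORX difference under PBS was -0.34. Dnaic2, an intermediate chain, had the largest range, with 1296 in the sham/PBS pool, 783.7 in sham/PPE, 1146 in ORX/PBS and 897.6 in ORX/PPE. Both PPE arrays were below both PBS arrays, with PPE differences of -0.73 in sham and -0.35 in ORX mice. Dnah9, a heavy chain of the distal cilium, had the smallest range of the group, with 1992, 1526, 1801 and 1782. Sham/PPE was low and the ORX arrays were level, with differences of -0.38 and -0.02. Of its other probes above background on all 4 arrays, 1 gave -0.44 and -0.01. Another, with dim signals of 41.69, 38.08, 55.05 and 54.37, had both ORX arrays above both sham arrays. Dnah5, the heavy chain most often mutated in primary ciliary dyskinesia, had 2777, 1716, 1991 and 2274. It was lower with PPE in sham mice and higher in ORX mice, with differences of -0.69 and 0.19. Dnah11 and Dnaic1 were at 73.0% and 71.8% of sham/PBS on sham/PPE.

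The inner dynein arm, a set of several different motors, shapes the bend of the cilium. Of its 8 genes, 7 were measured, all lower with PPE in sham mice, with a median of -0.40, against -0.02 in ORX mice. Their median ORX difference under PBS was -0.27. Dnah1, a heavy chain, had the largest range of the 38 genes, with 49.42 in the sham/PBS pool, 25.33 in sham/PPE, 25.31 in ORX/PBS and 20.31 in ORX/PPE. Sham/PBS stood alone above the others, with a PPE difference of -0.96 in sham mice and an ORX difference of -0.97 under PBS. The signal is under 50, where the scatter was large in the 2 or 3 probes that measure it, the normexp values were -0.20 and -0.52, and the second Dnah1 probe gave 0.01 and -0.45. Dnah2, another heavy chain, had the smallest range of the group, with 2162, 1695, 1878 and 1871. Its order was that of the list as a whole, with a PPE difference of -0.35 in sham mice and -0.00 in ORX mice.

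Dnah12 and Dnah7a, both heavy chains, parted in ORX mice. Dnah12 had 817.5 in the sham/PBS pool, 596.2 in sham/PPE, 726.4 in ORX/PBS and 912.3 in ORX/PPE. It was highest on ORX/PPE, with a PPE difference of 0.33 in ORX against -0.46 in sham mice. Its other 2 probes share 1 sequence and gave -0.33 and -0.55 in sham mice and -0.10 and -0.03 in ORX mice, so the higher ORX/PPE level was that of 1 probe. Dnah7a had 600.7, 454.6, 506.5 and 332.8. It was lowest on ORX/PPE, with a PPE difference of -0.61 in ORX and -0.40 in sham mice, while its other probes gave 0.30 and -0.34 in ORX mice. Dnah7a has close copies, Dnah7b among them, that may share a probe. The remaining Dnah6, Dnah10 and Dnali1, a light intermediate chain, were at 77.4%, 63.4% and 76.9% of sham/PBS on sham/PPE. Dnah3, below background everywhere, is not assigned a level.

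Dnaaf1, which helps assemble dynein arms in the cytoplasm, had 34.92 in the sham/PBS pool, 12.77 in sham/PPE, 26.47 in ORX/PBS and 34.69 in ORX/PPE. Only sham/PPE was not above background, so its level there is a bound. The bound uses the higher of its own signal and the lowest signal above background on that array. For Dnaaf1 this was its own signal of 12.77. Against it, Dnaaf1 was 2.73-fold lower with PPE in sham mice and 2.72-fold higher in ORX under PPE. A dim reading is no firm limit, so the true folds can be smaller. All 4 signals are under 50, where the scatter was read from 2 or 3 probes. With normexp the differences were -0.09 for PPE in sham mice and, under PPE, 0.07 for ORX. The offset of 50 that normexp adds makes differences of such dim signals smaller. Dynlrb2, a light chain of dynein, had 22450, 17840, 18330 and 19930. It was highest on sham/PBS and lowest on sham/PPE, with a PPE difference of -0.33 in sham mice against 0.12 in ORX mice.

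The ruler formed by CCDC39 and CCDC40 sets the repeat along the doublet, and DRC1 belongs to the nexin-dynein complex that links doublets. The 3 genes had a median of -0.52 for PPE in sham mice, and -0.03 in ORX mice. Their median ORX difference under PPE was 0.27. Ccdc39 had 679.7 in the sham/PBS pool, 439.2 in sham/PPE, 539.6 in ORX/PBS and 528.9 in ORX/PPE. Sham/PPE was lowest and the ORX arrays were level between the sham arrays. Drc1 had the smaller range, with 7378, 5512, 6535 and 5906. It kept the same order, with PPE differences of -0.42 and -0.15. Ccdc40 was at 69.6% of sham/PBS on sham/PPE.

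Radial spokes reach from the doublets to the central pair. The 4 genes had a median of -0.49 for PPE in sham mice and 0.04 in ORX mice, and all 4 were lower in ORX under PBS. Rsph4a, a spoke head gene, had 776.4 in the sham/PBS pool, 477.9 in sham/PPE, 655.8 in ORX/PBS and 539.2 in ORX/PPE. Both PPE arrays were below both PBS arrays, with differences of -0.70 in sham and -0.28 in ORX mice. Rsph9, another spoke head gene, had 4889, 3841, 4105 and 4378. The difference was smaller, -0.35, and turned to 0.09 in ORX mice. Rsph1 and Lrrc23 were at 69.3% and 73.5% of sham/PBS on sham/PPE.

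Central pair genes had the lowest median of the roles with several genes, -0.55 for PPE in sham mice, beside -0.06 in ORX mice. Spag16 had 427.1 in the sham/PBS pool, 276.3 in sham/PPE, 335.9 in ORX/PBS and 318.7 in ORX/PPE, with the ORX arrays close to each other between the sham arrays. Its PPE differences were -0.63 in sham and -0.08 in ORX mice. Its other probes above background gave -0.55 and -0.30 in sham mice, but 0.48 and 0.39 in ORX mice. Both were highest on ORX/PPE, so the place of that array was read from the brightest probe alone. Spef2 had 1483, 1101, 1298 and 1243, in the order of the brightest Spag16 probe, with PPE differences of -0.43 and -0.06. Hydin, a very large protein of a central pair projection, had 829.1, 539.4, 603.4 and 581.5. Sham/PBS stood above the other arrays, with a PPE difference of -0.62 in sham mice. Its other probes above background gave -0.77 and -0.44 in sham mice, but on them sham/PBS did not stand apart. The first had 40.36 on ORX/PBS against 38.58 on sham/PBS, and the second 125.9 on ORX/PPE against 127.1 on sham/PBS. Spag17 had 284.1, 213.7, 249.6 and 300.3, with ORX/PPE above sham/PBS. Its PPE difference was 0.27 in ORX and -0.41 in sham mice. Spag6 was at 68.4% of sham/PBS on sham/PPE, but the accession of its brightest probe belongs in RefSeq to Spag6l, a close copy.

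Tektins are filaments within the doublet wall, and Cfap52 and Tppp3 encode other microtubule-linked proteins. The 5 genes had a median of -0.42 for PPE in sham mice, and -0.09 in ORX mice. Under PBS their median ORX difference was -0.25. Cfap52 had 2445 in the sham/PBS pool, 1639 in sham/PPE, 1909 in ORX/PBS and 1760 in ORX/PPE. Sham/PBS was highest and the other 3 arrays were closer together, with PPE differences of -0.58 and -0.12. The second Cfap52 probe was lowest on ORX/PPE, with 164.0, 92.75, 113.0 and 73.34. Its PPE differences were -0.82 in sham and -0.62 in ORX mice, so the probes disagree in ORX mice. Tekt2 had the smallest range of the group, with 1651, 1307, 1389 and 1438. Its ORX arrays were level, with PPE differences of -0.34 and 0.05. Tppp3, a marker of ciliated cells, had 76370, 62970, 72490 and 60110. It was unlike the list, with almost the same PPE difference in sham and ORX mice, -0.28 and -0.27. Tekt1 and Tekt4 were at 74.5% and 67.9% of sham/PBS on sham/PPE.

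Of the other ciliary genes, Ak7, an adenylate kinase of motile cilia, had 255.6 in the sham/PBS pool, 153.4 in sham/PPE, 224.7 in ORX/PBS and 182.0 in ORX/PPE. Both PPE arrays were below both PBS arrays, with differences of -0.74 in sham and -0.30 in ORX mice. Ccdc113 had 4421, 3207, 3891 and 3758, with sham/PPE low and the ORX arrays close. Its PPE differences were -0.46 and -0.05. Ccdc153, a marker of ciliated cells, and Pifo were at 71.1% and 69.1% of sham/PBS on sham/PPE.

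The PPE difference was compared between surgeries gene by gene. The sham difference minus the ORX difference had a median of -0.45 over 38 genes, with 36 below 0, beside a median of 0.06 and 42.5% below 0 over all genes. The exceptions above 0 were Mcidas and Dnah7a, as read by their brightest probes. On their other probes the sham difference was below the ORX difference. For Mcidas it was -0.28 against -0.05, at signals under 50. For Dnah7a it was -0.48 against 0.30 and -0.77 against -0.34. None of the 38 reached a gap of 1 on the log2 scale below, against 1.27% of all genes. For 10 of the 38 genes (26.3%) the level was lower with PPE in sham mice and higher in ORX mice, against 21.6% of all genes, a share near the background. The other 28 were below 0 under both surgeries, but in ORX mice the values lay near 0, with a median of -0.05. Centring on reference genes left 13 of 39 measured genes below 0 in ORX mice. The share of all genes below 0 under both surgeries was not counted.

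Genes with several probes gave a further reading. For PPE in sham mice, 28 of 30 other probes, of 20 genes, had the sign of the brightest probe, with a median of -0.54 beside -0.52 for the brightest probes of those genes. For ORX under PBS it was 25 of 31, for ORX under PPE 23 of 29, and for PPE in ORX mice, where differences lie near 0, 17 of 29.

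Lists of related genes were read in the same way. The closest, 47 other genes of the axoneme and of ciliated cells, had 46 below 0 for PPE in sham mice, with a median of -0.48, and 39 below 0 in ORX mice, with a median of -0.10. For ORX under PBS 46 were below 0, with a median of -0.29. For ORX under PPE 31 were above 0, with a median of 0.07, beside 0.18 for the motile cilia genes. None of the 47 was 2-fold apart in any comparison. Among them Sntn, a protein of the ciliary tip, had 668.6 in the sham/PBS pool, 422.8 in sham/PPE, 535.5 in ORX/PBS and 421.8 in ORX/PPE. It was as low on ORX/PPE as on sham/PPE. Cfap74 was the 1 gene above 0 for PPE in sham mice, at 0.14. Genes for dynein assembly and docking, with 27 measured, had 24 below 0 in sham mice and a median of -0.36, led by Lrrc6 at -0.84, an assembly factor. In ORX mice their median was -0.10, and for ORX under PPE it was 0.05, with 17 of 27 above 0.

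The step before ciliogenesis, the making of many centrioles, was less uniform. Of 18 measured genes of multiciliation and centriole amplification, 15 were below 0 for PPE in sham mice, with a median of -0.18. Gmnc, the most upstream factor of the multiciliated fate, had 321.9 in the sham/PBS pool, 157.1 in sham/PPE, 126.7 in ORX/PBS and 77.08 in ORX/PPE. Sham/PBS was highest and ORX/PPE lowest: Gmnc was 2.05-fold lower with PPE in sham mice and 2.54-fold lower in ORX under PBS, a size that no gene of the 40 measured on both arrays reached in these comparisons. Ccno, a cyclin of centriole amplification, had 610.0, 472.4, 402.3 and 393.5, with both ORX arrays below both sham arrays. Intraflagellar transport, the carriage of parts along any cilium, had a median of -0.16 over 24 genes in sham mice, -0.10 in ORX mice and, under PBS, an ORX median of -0.03 that was 0.01 with median centring. Tubulins and their modifying enzymes, 17 genes of which some serve cilia and others all or other cells, had a median of 0.03 in sham mice, which was -0.06 on reference gene centring. The median hides a spread. Among the tubulin-modifying Ttll enzymes, Ttll3, Ttll6 and Ttll9 had PPE differences of -0.31, -0.44 and -0.45 in sham mice. Ttll1 went the other way, at 0.33, the highest of the list. In sham mice 11 of the 17 genes were above 0. Their ORX median under PBS was -0.12.

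**Figure D4:**
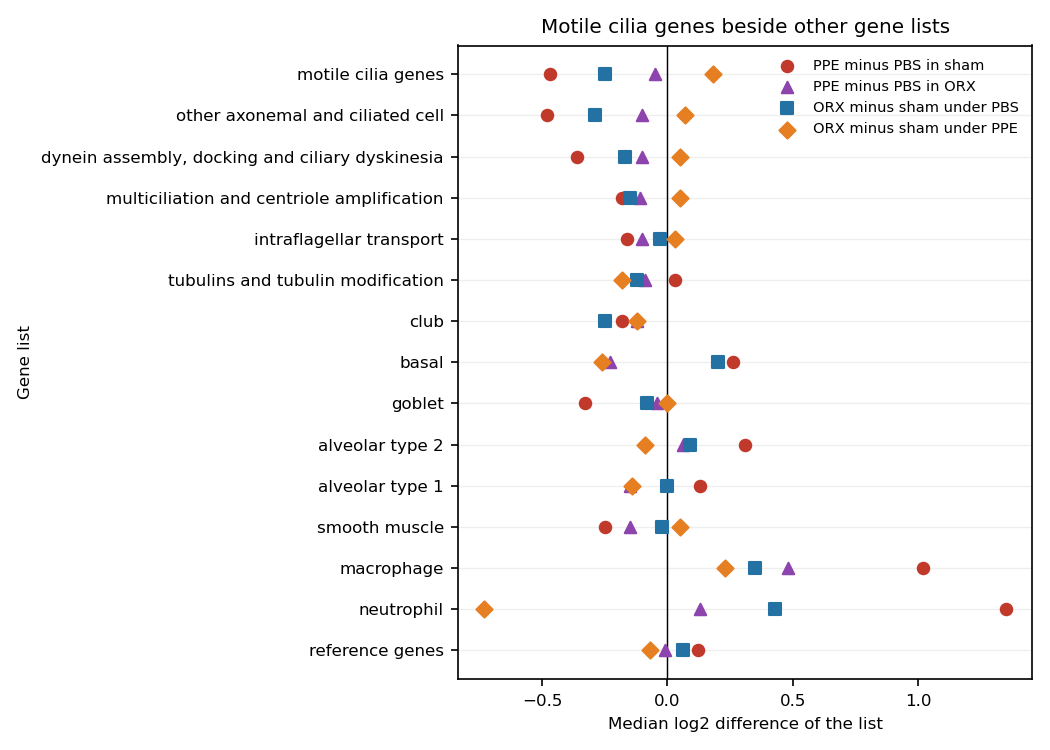
Median log2 difference of the motile cilia genes and of the other lists in the 4 comparisons. For PPE against PBS in sham mice the motile cilia genes (-0.47) and the other axonemal genes (-0.48) lie lowest among the ciliary lists, and intraflagellar transport (-0.16) and tubulins (0.03) lie nearer 0.

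Markers of other cells moved on the same arrays. The 18 club cell genes, secretory cells of the same airway lining, had a median of -0.18 for PPE in sham mice, and -0.25 in the ORX comparison under PBS. They had summed scaled signals of 2196000 in the sham/PBS pool, 2030000 in sham/PPE, 1873000 in ORX/PBS and 1834000 in ORX/PPE. Of the other airway lining cells, goblet genes had a median of -0.33 for PPE in sham mice, with 6 of 8 measured genes below 0, and of -0.04 in ORX mice. Basal cell genes went the other way, with a median of 0.26 and 8 of 9 above 0 in sham mice, and were at -0.23 in ORX mice. Neutrophil markers had a median of 1.35 and macrophage markers of 1.02 for PPE in sham mice, against 0.13 and 0.48 in ORX mice. The summed neutrophil signal was 81030, 165800, 97430 and 112900 in the order of arrays used above, and that of macrophages 41900, 83320, 55640 and 100600. Both were thus above sham/PBS on every other array, and highest for neutrophils on sham/PPE and for macrophages on ORX/PPE. Smooth muscle genes had a median of -0.25, alveolar type 1 genes of 0.13 and alveolar type 2 genes of 0.31 for PPE in sham mice. The median of cardiac muscle genes, expressed in the heart and in pulmonary vein walls, was 0.65 for PPE in sham mice, and in ORX mice it was -0.98. Spermatid genes had a summed signal of 4999, 7999, 5291 and 5132, highest on sham/PPE, where the motile cilia genes were lowest. The part of these lists in the levels of the motile cilia genes was not tested.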

How the data were processed

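RNA from mouse lung, pooled from 5 mice a group, was labelled with Cy3 and hybridised to a single-colour Agilent 60-base array, per the labels' protocols. The deposited intensity is the processed signal of Agilent Feature Extraction, background-subtracted per the file headers; the headers name version 10.7.1.1 and the submitters' processing notes 9.5.1.1. All 4 arrays were on 1 slide and scanned on 1 day. The deposited value table has the same median, 71.5, in all 4 columns and matched quantile-normalised log2 values; how the authors scaled it is not given in the sources used here. Marks for background, saturation and outlier spots came as other deposited columns of 0 and 1, per the file headers.

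Control and outlier spots (31 to 54 an array) were left out, spots of a probe were averaged, and log2 intensities were centred on each array's 75th percentile over 56605 probes. The scaled signal is the same value returned to a linear scale at the geometric mean of the 4 percentiles. The brightest probe stood for a gene. A gene above background on 1 of 2 arrays has a bound, which rests on a dim signal and is no firm limit. No test was run, and the precision is limited by 1 array a group. Values on every array are given for the 4 transcription factors, for genes 2-fold apart and, in each role, for the largest and smallest range; others were chosen after their values were seen, as Dnah5, Dnah7a, Dnah12, Hydin, Spag17, Tppp3 and Sntn. From each other list, genes with the largest differences could be named. The genes, the lists and the groups of role were chosen with earlier results of these data known. Alternatives were normexp with an offset of 50 (limma 3.58.1 in R 4.3.3), quantile normalisation, median centring, the deposited value table, other filters, the mean of probes and a 1.5-fold threshold; centring on reference genes and leaving out Mcidas, Dnah7a and Spag6 were added after seeing the data. Scripts ran in Python 3.11.15 and were tested on simulated data. Probe names are those of the array's design.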

Additional observations from a re-analysis of the deposited data

Results flagged for a closer look

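The PPE difference of the motile cilia genes stood out between sham and ORX mice. The sham difference minus the ORX difference had a median of -0.45 over 38 genes, with 36 below 0, from a median of -0.47 in sham and -0.05 in ORX mice. Each of the 4 values behind a gene is 1 pool on 1 array, so this difference was not tested. Leaving out Mcidas, Dnah7a and Spag6 gave medians of -0.48 and -0.03.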

How the results depend on the processing

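No paired analysis was possible because each group has 1 array. For PPE in sham mice the median ran from -0.56 to -0.43, for ORX under PBS from -0.29 to -0.21, and for ORX under PPE from 0.16 to 0.33. Centring on reference genes gave the largest shifts: -0.56 for PPE in sham mice, 0.04 for PPE in ORX mice, then 0.33 for ORX under PPE, with 2 genes 2-fold lower for PPE in sham mice. It shifts all genes alike: the median of all genes moved from -0.01 to 0.08 for PPE in ORX mice and, under PPE, from -0.03 to 0.11 for ORX. The motile cilia genes minus all genes stayed at -0.51 for PPE in sham mice and at -0.04 for PPE in ORX mice. The other 3 medians kept their sign in every setting run. The 2-fold calls of Dnaaf1 were lost with normexp and with the demand for background on all 4 arrays, which left 0 lower for PPE in sham mice and 0 higher for ORX under PPE. Neither setting tests these calls. Dnaaf1 was not above background on sham/PPE, so the demand drops it. The offset that normexp adds is larger than the signals of Dnaaf1, which makes their differences smaller. With no filter on dim probes, Dnah3, below background, gave 1 gene higher for PPE in ORX mice and 1 lower for ORX under PBS. At 1.5-fold, 11 were lower for PPE in sham mice, 1 in the PPE comparison of ORX mice and 1 in the ORX comparison under PBS, and 2 were higher for ORX under PPE. A median or a single gene's difference counted as moved when it shifted by over 0.0514, the largest spot scatter over all repeated probes of an array, and a count when it shifted by over 1.5 times. By this 14 summary values moved and 111 did not, and of single genes 243 moved and 1145 did not. Other filters and leaving out genes reuse a gene's main signals, so single-gene values stayed the same there by design. The deposited value table nearly repeats quantile normalisation. The 1145 therefore includes comparisons that could not move, and is no measure of robustness. Signals under 50, as for Dnah1 and Dnaaf1, limit what can be read.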
